A study of Mus musculus with 8 samples.

Results

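The 7 genes described here were transcription factors of the myeloid lineage, Spi1, Cebpa, Cebpb, Cebpe, Irf8, Irf5 and Maf, which were taken by name as 7 of the 28014 gene rows of a single-cell count table and followed through all 10 cell types and both genotypes. The table held 15168 CD31+ cells sorted from the aorta-gonad-mesonephros (AGM) region, where blood stem cells emerge from arterial endothelium, of mouse embryos at embryonic day 10.5. RNA and 6 antibody tags were counted together in each cell (CITE-seq), with unique molecular identifiers (UMIs) standing for captured transcripts. There were 8 libraries, each a pool of 2 to 5 embryos: 5 WT libraries of strain C57BL/6 and 3 Meis1-flox/VE-Cre libraries (genotype Meis1-knockout), in which Cre under control of the VE-cadherin promoter removes exon 8 of Meis1 from endothelial cells and their descendants. Neither group had a treatment, both were taken at the same stage, and the replicates were separate pools, so the p-values below measure the spread between pools of embryos. WT 1 to WT 5 and Meis1-flox/VE-Cre 1 to 3 name the libraries by their labelled replicate numbers.

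PU.1, the protein of Spi1, is an ETS family factor that is required for the macrophage and granulocyte lineages and acts together with C/EBP factors at many myeloid enhancers. Among the C/EBP family, C/EBP alpha (Cebpa) is needed for the step into granulocyte and monocyte progenitors, C/EBP epsilon (Cebpe) for the later, granule-forming stages of granulocytes, and C/EBP beta (Cebpb) takes part in emergency granulopoiesis and in macrophage gene expression. IRF8 turns progenitors towards monocytes, macrophages and dendritic cells, IRF5 drives inflammatory cytokine genes in macrophages, and c-MAF (Maf) is found in mature tissue macrophages. In the RefSeq annotation of GRCm38.p6, the assembly that mm10 represents, all 7 were protein-coding genes: Spi1 at chr2:91082374-91115759, Cebpb at chr2:167688915-167690432, Irf5 at chr6:29526130-29541869, Cebpa at chr7:35119293-35121928, Maf at chr8:115703253-115706894, Irf8 at chr8:120736358-120756694 and Cebpe at chr14:54710363-54712174.

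The 250 bases before the annotated starts of Cebpa and Irf8 are shown because these 2 genes stood in opposite order between erythro-myeloid progenitors and Myeloid cells. Both are from the RefSeq promoter table of GRCm38.p6, on the + strand, at chr7:35119043-35119292 and chr8:120736108-120736357. The capitals mark the letters TATAAA, the TATA box motif.
Cebpa: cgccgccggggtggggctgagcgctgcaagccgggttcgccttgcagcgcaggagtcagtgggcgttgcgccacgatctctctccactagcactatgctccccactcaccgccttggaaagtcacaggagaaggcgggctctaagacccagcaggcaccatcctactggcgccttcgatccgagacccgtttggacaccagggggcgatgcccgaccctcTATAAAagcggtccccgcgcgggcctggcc
Irf8: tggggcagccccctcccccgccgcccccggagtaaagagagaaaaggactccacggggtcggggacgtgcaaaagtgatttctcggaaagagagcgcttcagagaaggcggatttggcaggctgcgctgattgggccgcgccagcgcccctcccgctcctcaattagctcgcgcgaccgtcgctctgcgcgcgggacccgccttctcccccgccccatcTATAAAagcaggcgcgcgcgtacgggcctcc

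Counted from the annotated start, this match began at base -30 in Cebpa and at base -31 in Irf8, and 12.4% of the 32851 promoters of the table held TATAAA in the same window. The letters of a core PU.1 motif (GAGGAA), a C/EBP motif (TTGCNNAA), a GATA motif (AGATAA) and an IRF motif (GAAANNGAA) were not found on either strand in the windows of Cebpa, Irf8 or Cebpb. These motifs occurred in 23.3%, 9.56%, 9.99% and 7.13% of the promoters. The table held 4 of the 7 members, and the entry for Irf5 was not used because its window lay inside the gene.

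The cells fell into the 10 clusters that the authors had drawn from the RNA: 4 venous endothelial groups (vEC_1 to vEC_4), arterial endothelium (aEC), pre-hemogenic endothelium (pre-HE, 248 cells), cells in endothelial-to-hematopoietic transition (EHT, 488 cells), erythro-myeloid progenitors (EMP, 747 cells), Myeloid cells (2397 cells) and Megakaryocytes (359 cells). Since the same RNA drew the clusters, the tests between clusters below describe how regularly a difference recurred from library to library. Total UMIs per library ran from 20484881 to 79429129, and the median UMIs per cell were 26572 to 28553 in WT 1 to WT 4, 12720.5 in WT 5 and 9611.5 to 14895 in the Meis1-flox/VE-Cre libraries. WT 3 held only 11 pre-HE cells, 35 Myeloid cells and 5 Megakaryocytes, and 33 of the 15135 cell barcodes occurred in more than 1 library. The Myeloid label stood with its markers: the 12 macrophage markers summed to 2582 counts per 1000000 UMIs (CPM) in WT Myeloid cells (range 1648 to 3524) against 42.1 CPM in EMP. Granulocyte markers were higher in EMP (mean 1595 CPM, range 1406 to 1927) than in Myeloid cells (mean 901 CPM, range 737 to 1001), and Ly6g and Retnlg, genes of mature neutrophils, were at 0 in Myeloid cells of both genotypes.

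In WT embryos the 7 factors appeared at different points between pre-HE and Myeloid cells. Spi1 and Cebpb were already high in EHT, Cebpa and Cebpe were highest in EMP, and Irf8, Irf5 and Maf were highest in Myeloid cells. The level of a gene was its UMIs summed over the cells of a library and cell type, in CPM, a scale that compares cell types for each factor and does not compare factors with each other. Differences were tested with edgeR on those summed counts, with the library as a block and a call at an adjusted p under 0.1. The standard error (SE) given with an edgeR difference is its absolute log2 value divided by the square root of the F statistic. It is no direct measure of the spread between libraries. It can be too small where 1 side of a comparison held few counts, as Spi1 did in pre-HE. From pre-HE to EHT, 2 of the 7 members had enough counts to be tested and both were called higher, beside 61.6% of all genes tested (31.6% higher). From EHT to EMP, 5 of 6 tested members were called, 4 higher and 1 lower, beside 56.4% of all genes (27.6% higher, 28.8% lower). From EMP to Myeloid all 7 members were tested and called, 5 higher and 2 lower, beside 61.1% of all genes (32.1% higher, 29.0% lower). A member with counts in 1 cell type only passes the filter through the cell type where it is high, so these counts are read beside the per-library values and are no support by themselves.

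**Figure D1:**
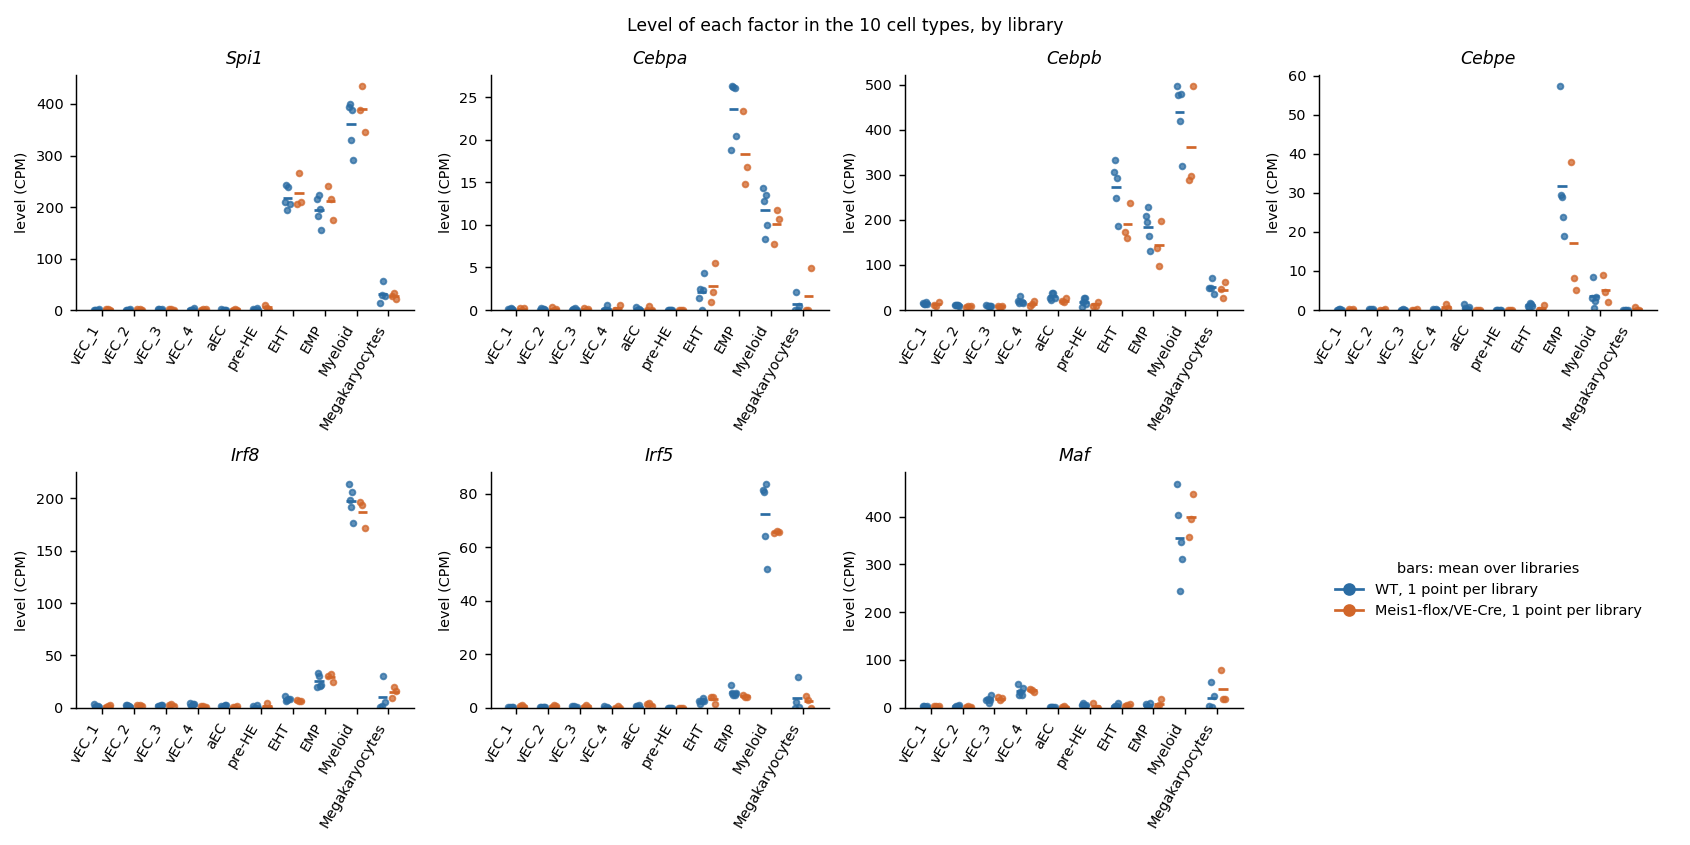
Level of each of the 7 factors in CPM (vertical axes) by cell type (horizontal axes), 1 point per library with at least 10 cells, WT in blue and Meis1-flox/VE-Cre in orange, with bars at the means. Spi1 and Cebpb are high from EHT on, Cebpa and Cebpe peak in EMP, and Irf8, Irf5 and Maf peak in Myeloid cells.

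Spi1 was close to absent from endothelium and pre-HE and abundant in EHT. In pre-HE its level was 1.84 CPM in WT 1, 0 in WT 2, 0 in WT 3, 3.16 in WT 4 and 0 in WT 5. In EHT it was 211, 242, 194, 239 and 206 CPM in WT 1 to WT 5, so that the ranges lay far apart. The difference was 6.68 on the log2 scale (SE 0.28, edgeR adjusted p = 1.02e-19). EMP held 216, 183, 224, 196 and 156 CPM in the same order. The EHT and EMP ranges overlapped, with EMP higher in 2 of 5 libraries, and no difference was called (log2 difference -0.08, SE 0.08, edgeR adjusted p = 0.455), although Spi1 was called lower in EMP after each cell was thinned to 5000 UMIs (-0.34, edgeR adjusted p = 0.0239) and without WT 3 (-0.17, edgeR adjusted p = 0.0833). Myeloid cells held 395, 399.9, 329, 387 and 291 CPM, above every EHT and EMP library, and the rise over EMP was 0.94 on the log2 scale (SE 0.07, edgeR adjusted p = 9.44e-07). The Meis1-flox/VE-Cre libraries 1 to 3 followed the same order, with 206, 267 and 209 CPM in EHT, 242, 216 and 176 CPM in EMP and 388, 435 and 346 CPM in Myeloid cells.

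Cebpb took nearly the same course as Spi1 but had a measurable level in endothelium. In aEC it ran from 22.6 to 38.4 CPM over the WT libraries and in pre-HE from 7.37 to 27.7 CPM, ranges that overlapped. In EHT it was 307, 334, 248, 293 and 187 CPM in WT 1 to WT 5, a rise over pre-HE of 3.84 on the log2 scale (SE 0.20, edgeR adjusted p = 2.01e-17). EMP held 208, 195, 229, 164 and 131 CPM, lower than EHT in 5 of 5 libraries though the ranges overlapped, and Cebpb fell by 0.48 on the log2 scale (SE 0.09, edgeR adjusted p = 2.47e-04). Myeloid cells held 498, 477, 419, 481 and 319.9 CPM, a rise over EMP of 1.31 (SE 0.08, edgeR adjusted p = 1.72e-07). WT 5 was the lowest WT library for Cebpb in EHT, EMP and Myeloid cells.

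Cebpa and Cebpe were factors of EMP. Cebpa had no UMI in pre-HE in any of the 8 libraries and reached only 1.45, 2.51, 0, 2.35 and 4.34 CPM in EHT of WT 1 to WT 5. Summed over the 5 WT libraries there were 21 Cebpa UMIs in EHT and 0 in pre-HE, at least 1.76-fold higher when pre-HE is set to a floor of 3 counts over the group (1.29 CPM). In EMP the level was 18.8, 26.3, 26.2, 26.1 and 20.4 CPM, above every EHT library, a rise of 3.44 on the log2 scale (SE 0.29, edgeR adjusted p = 1.56e-07). Myeloid cells held 14.3, 12.8, 8.37, 13.5 and 9.94 CPM, below every EMP library, and Cebpa fell by 0.89 on the log2 scale (SE 0.14, edgeR adjusted p = 2.83e-04).

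Cebpe was steeper on both sides of EMP. It had 11 UMIs in WT EHT (1.19 CPM over the pooled libraries) and 0 in pre-HE. The EHT level lay below the pre-HE floor of 3 counts (1.29 CPM), so no fold is given. In EMP it was 57.5 CPM in WT 1, 29.4 in WT 2, 29.1 in WT 3, 23.9 in WT 4 and 18.9 in WT 5, with WT 1 apart from the other 4, and the rise over EHT was 4.79 on the log2 scale (SE 0.26, edgeR adjusted p = 1.71e-09). Myeloid cells held 2.98, 8.52, 0.558, 2.31 and 3.26 CPM, all below the lowest EMP library, and Cebpe fell by 2.96 on the log2 scale (SE 0.34, edgeR adjusted p = 2.92e-05). In the Meis1-flox/VE-Cre libraries EMP held 38.0, 8.29 and 5.17 CPM and Myeloid cells 8.93, 4.59 and 2.02 CPM, so that the 2 ranges overlapped, although EMP was higher in each library.

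Irf8 and Irf5 had their step at the entry into Myeloid cells. Irf8 was 11.6, 6.26, 7.52, 8.60 and 8.14 CPM in EHT of WT 1 to WT 5 and 20.1, 33.1, 30.5, 20.8 and 21.5 CPM in EMP, ranges that did not overlap (log2 rise 1.60, SE 0.20, edgeR adjusted p = 9.99e-06). In Myeloid cells it was 214, 198, 191, 206 and 177 CPM, a further rise of 3.04 (SE 0.12, edgeR adjusted p = 7.88e-09). Irf5 had 0 UMIs in pre-HE and 24 in WT EHT, at least 2.01-fold higher over the same floor. It was 8.59, 5.59, 4.84, 4.79 and 5.56 CPM in EMP, a rise over EHT of 1.28 on the log2 scale (SE 0.32, edgeR adjusted p = 3.50e-03). In Myeloid cells it was 81.4, 80.7, 64.2, 83.7 and 52.0 CPM, all above EMP, a rise of 3.72 (SE 0.14, edgeR adjusted p = 5.79e-09). The 3 Meis1-flox/VE-Cre libraries held 197, 194 and 171 CPM of Irf8 and 65.2, 66.1 and 65.5 CPM of Irf5 in Myeloid cells.

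Besides its Myeloid level, Maf stood above the other endothelial clusters in 2 of the 4 venous ones. It was 50.3, 27.0, 32.7, 27.0 and 40.9 CPM in vEC_4 of WT 1 to WT 5 and 17.0, 18.5, 11.1, 15.6 and 26.2 CPM in vEC_3, against a mean of 1.02 ± 0.25 CPM (SD, n = 5) in aEC. The vEC_4 libraries lay above every vEC_3 library, while vEC_2 and vEC_1 had means of 3.25 and 3.08 CPM. Pre-HE, EHT and EMP had means of 5.56, 4.60 ± 3.77 and 5.22 ± 3.65 CPM (SD, n = 5), with overlapping ranges, and Maf was too low to be tested between them. In Myeloid cells Maf was 469, 403, 244, 347 and 311 CPM, the largest rise over EMP of the 7 members (6.29 on the log2 scale, SE 0.21, edgeR adjusted p = 2.52e-09). The Meis1-flox/VE-Cre libraries held 357, 394 and 448 CPM there.

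Ordered by WT means, Spi1 ran from Myeloid (360 ± 48.2 CPM) over EHT (218 ± 21.2) and EMP (195 ± 27.3) to Megakaryocytes (26.0 ± 19.3), with only EHT and EMP overlapping among these 4 (SD, n = 5, including the 5 Megakaryocytes of WT 3). Cebpb had the order Myeloid (439 ± 73.0 CPM), EHT (274 ± 57.7), EMP (185 ± 38.6) and Megakaryocytes (42.8 ± 22.8), and the Megakaryocyte range overlapped with that of aEC (30.7 ± 7.20). Cebpa went from EMP (23.6 ± 3.64 CPM) to Myeloid (11.8 ± 2.51) and EHT (2.13 ± 1.59), without overlap, and EHT overlapped with Megakaryocytes. Irf8 went from Myeloid (197 ± 14.4 CPM) to EMP (25.2 ± 6.11) and EHT (8.42 ± 1.97), and the EHT range lay inside that of Megakaryocytes (7.94 ± 12.9). Irf5 was higher in EMP (5.87 ± 1.56 CPM) than in EHT (2.48 ± 0.81) in 5 of 5 WT libraries. Megakaryocytes (2.84) could not be ordered against either, because their range overlapped with both. None of the 28 member steps examined (pre-HE to EHT, EHT to EMP, EMP to Myeloid and EMP to Megakaryocytes) ran one way in every WT library and the other way in every Meis1-flox/VE-Cre library.

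On the way to Megakaryocytes the myeloid factors were mostly lower. In the 4 WT libraries with at least 10 Megakaryocytes, 6 of 7 members were called against EMP, 5 of them lower and 1 higher, beside 58.9% of all genes (29.5% higher, 29.5% lower). Spi1 was 14.2, 28.2, 55.5 and 27.9 CPM in Megakaryocytes of WT 1, 2, 4 and 5, far below their EMP values (fell by 2.50 on the log2 scale, SE 0.22, edgeR adjusted p = 1.86e-05). Cebpb fell by 1.68 (SE 0.14, edgeR adjusted p = 1.69e-05). Cebpa fell by 4.93 (SE 0.46, edgeR adjusted p = 3.11e-05). Its Megakaryocyte mean was 0.518 ± 0.942 CPM (SD, all 5 WT libraries), near a floor of 3 counts over the 4 libraries (0.508 CPM). The size of this fall is therefore uncertain. Cebpe had 0 UMIs in these Megakaryocytes and 486 in EMP of the same libraries, so that EMP was at least 61.2-fold higher over a floor of 3 counts over the group.

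The remaining factors depended on single libraries in Megakaryocytes. Irf8 was 1.09, 2.17, 30.6 and 5.82 CPM, with WT 4 alone above the lowest EMP library, and was called lower (-1.33, SE 0.57, edgeR adjusted p = 0.0772). Without WT 4 its difference was -2.68, and without WT 1, WT 2 or WT 5 it was -1.07, -0.82 or -1.15 and no longer called. Maf was 3.27, 54.3, 0.828 and 24.1 CPM, higher than EMP in 2 of 4 libraries, and was called higher (1.70, SE 0.66, edgeR adjusted p = 0.0557), which became 0.46 without WT 2 and 0.93 with DESeq2 and lost the call in both. Irf5 was not called (-0.81, SE 0.73, edgeR adjusted p = 0.383) but was called lower without WT 4 (-2.66). The summed macrophage markers in WT Megakaryocytes ranged from 6.54 to 202 CPM between libraries, against 1648 to 3524 CPM in Myeloid cells, and their part in the Irf8, Irf5 and Maf values was not tested.

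Other transcription factors with known myeloid or progenitor roles were counted from a list of 32. These counts stand beside the shares of all genes tested. From pre-HE to EHT 61.6% were called, 31.6% higher. From EHT to EMP 27.6% were higher and 28.8% lower, and from EMP to Myeloid 32.1% and 29.0%. In Megakaryocytes against EMP 29.5% were higher and 29.5% lower. From pre-HE to EHT, 6 of the 16 tested were called higher, with Myb (6.82, SE 0.35 on the log2 scale), Runx1 (5.62, SE 0.34) and Gfi1 (4.42, SE 0.41), of which Runx1 and Gfi1 are known regulators of the transition, while 7 were lower, among them Klf4 (-4.36, SE 0.33). From EHT to EMP, 10 of 18 were higher, led by Gata1 (4.66, SE 0.25), the erythroid and megakaryocyte factor, and 6 were lower, led by Gfi1 (-4.95, SE 0.27). From EMP to Myeloid, 16 of 23 were higher, including Batf3 (5.49, SE 0.28), Irf7 (3.71, SE 0.36) and Klf4 (2.10, SE 0.14), and 5 were lower, among them Gata1 (-4.60, SE 0.27), Gata2 (-3.70, SE 0.31), the GATA cofactor Zfpm1 (-3.43, SE 0.18) and Myb (-2.70, SE 0.18). The median over the 23 was 1.02 on the log2 scale, against 0.02 over all genes tested in that comparison. In Megakaryocytes against EMP, 9 of 17 were higher, with Gata1 at 1.44 (SE 0.14), and 5 were lower, with Myb at -3.98 (SE 0.33).

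Cytokine receptors of the myeloid lineage were counted from a list of 10. Over all genes tested, 27.6% were called higher and 28.8% lower from EHT to EMP, and 32.1% and 29.0% from EMP to Myeloid. From EHT to EMP, 4 of 9 tested receptor genes were higher, with Csf2rb, the shared beta chain of the IL-3 and GM-CSF receptors, at 2.59 on the log2 scale (SE 0.21), Csf1r, the macrophage CSF receptor, at 0.99 (SE 0.32) and Csf3r, the G-CSF receptor, at 0.89 (SE 0.19), while the stem cell factor receptor Kit was lower (-0.94, SE 0.07). From EMP to Myeloid, 5 of 10 were higher, Csf1r most (4.47, SE 0.22), and 2 were lower, Kit (-2.53, SE 0.21) among them. All 11 tested macrophage markers were higher in that step (median 6.11 on the log2 scale), and all 4 tested granulocyte markers were higher from EHT to EMP (median 4.37), with Elane at 5.26 (SE 0.36).

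The share of cells with a UMI was the measure closest to single cells. Cells were first thinned to 5000 UMIs, because WT pre-HE cells had a median of 12884 UMIs, EHT 25591.5, EMP 46035.5 and Myeloid 39173. Of 21 member steps, 16 were called over the 8 libraries, 13 higher and 3 lower. The test was an exact sign-flip permutation within libraries (adjusted p under 0.1, smallest possible p = 0.0078). It was run on the 7 members only, so no share over all genes by this test stands beside the count. By edgeR in WT, 61.6%, 56.4% and 61.1% of all genes tested were called in the same 3 steps. The count is therefore no support by itself. A UMI of Spi1 was found in 0.787% of pre-HE cells, 64.0% ± 7.97 of EHT, 56.0% ± 6.95 of EMP and 81.3% ± 4.67 of Myeloid cells (SD, n = 8 libraries). In the venous and arterial endothelial cells of WT embryos, which should lack Spi1, the mean share was at most 0.481%. Cebpb was found in 6.68%, 62.8% ± 10.8, 46.6% ± 8.56 and 77.3% ± 6.37 of the same cell types, and its lower share in EMP than in EHT held in 8 of 8 libraries (exact permutation adjusted p = 0.0164).

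For Spi1 the difference from EHT to EMP was -8.07 points, with a lower share in 7 of 8 libraries, which was not called (exact permutation adjusted p = 0.164). Cebpa went from 0% in pre-HE to 1.16% in EHT, 9.50% ± 3.02 in EMP and 5.30% ± 1.63 in Myeloid cells, and Cebpe from 0% to 0.614%, 5.59% ± 2.22 and 1.33% ± 0.80 (SD, n = 8). The fall from EMP to Myeloid was seen in 7 of 8 libraries for Cebpa and in 8 of 8 for Cebpe (exact permutation adjusted p = 0.0252 and 0.0164). Irf8 rose from 7.50% ± 1.97 of EMP to 57.5% ± 6.27 of Myeloid cells, Irf5 from 2.60% to 31.2% ± 5.06 and Maf from 1.90% to 64.3% ± 7.99 (SD, n = 8), each in 8 of 8 libraries (exact permutation adjusted p = 0.0164). Without thinning, 99.1% of WT Myeloid cells had a Spi1 UMI, 86.1% an Irf5 UMI, 84.6% a Maf UMI and 32.1% a Cebpa UMI, and 41.3% of WT EMP had a Cebpa UMI and 13.5% a Cebpe UMI. A Cebpa or Cebpe UMI was thus found in a minority of EMP at the depth reached here.

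**Figure D2:**
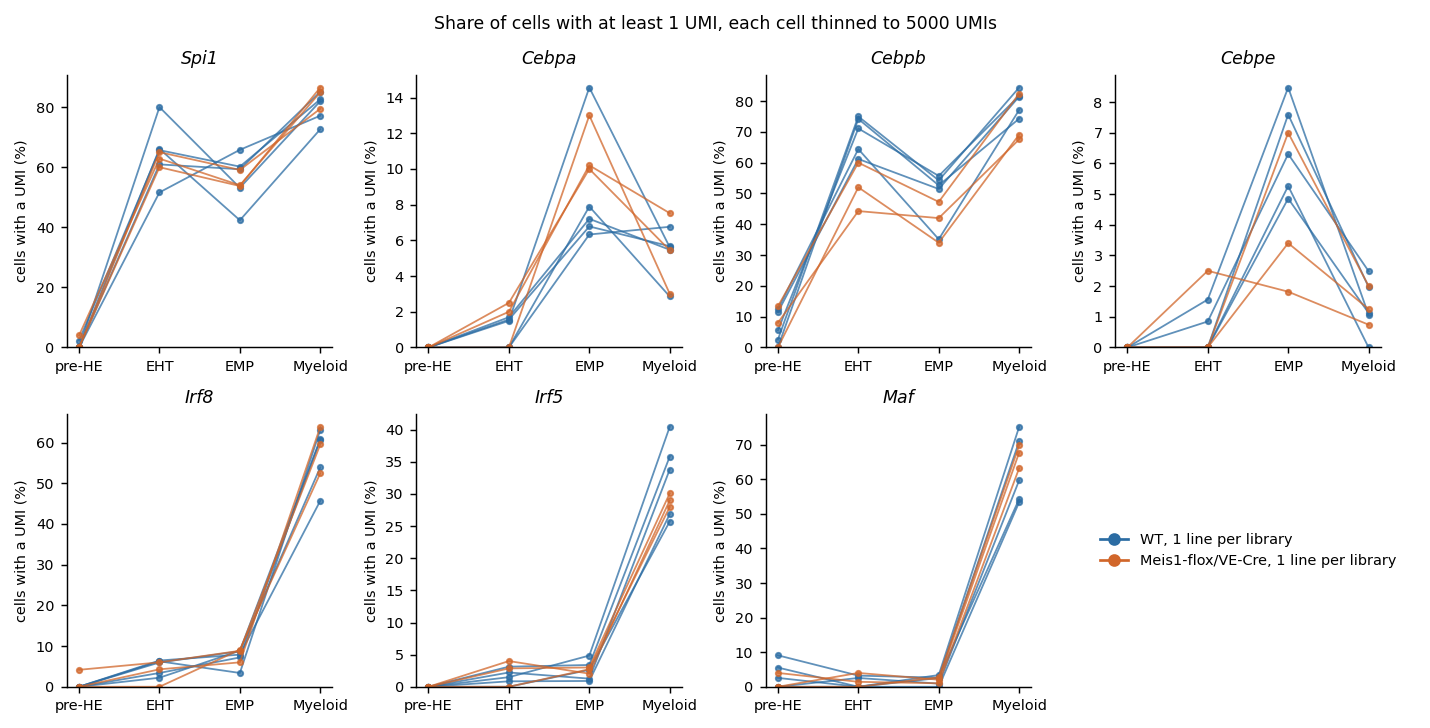
Percent of cells with at least 1 UMI of each factor after thinning to 5000 UMIs (vertical axes) along pre-HE, EHT, EMP and Myeloid (horizontal axis), 1 line per library. All 8 lines rise from EMP to Myeloid for Irf8, Irf5 and Maf, and all 8 fall for Cebpe.

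Within EMP, several pairs of factors were found together in more cells than the product of the single shares gives. Of 21 member pairs tested in thinned cells, 11 were called, and no share over other gene pairs was computed. Of the 9 pairs with at least 8 cells expected, 5 were called, all above expectation and each in 8 of 8 libraries. Their exact permutation p was 0.0078, the smallest possible (adjusted p = 0.0273 over the 21 pairs). Spi1 and Cebpb were found together in 247 EMP cells where 184 were expected, Spi1 and Cebpa in 61 where 41.0 were expected, and Spi1 and Irf8 in 45 where 31.8 were expected. Cebpe was found with Cebpb in 34 cells against 17.7 expected and with Spi1 in 33 against 21.1 expected. The other called pairs had fewer than 8 cells expected. Cebpa with Cebpe (9 against 3.73) and Spi1 with Maf (10 against 7.26) lay above expectation. Cebpe with Irf8 (1 against 2.84), Irf5 (0 against 0.970) and Maf (0 against 0.664), and Irf5 with Maf (0 against 0.301), lay below. Finding 0 cells puts a pair below in every library that held both factors. In unthinned EMP the pair Irf8 and Irf5 was also above expectation in 8 of 8 libraries, with 48 cells against 21.3 expected (exact permutation adjusted p = 0.0164), where cells of unequal depth were set side by side. In thinned EMP cells this pair was above expectation in 3 and below in 5 of 8 libraries (3 cells against 1.46 expected, exact permutation adjusted p = 0.578).

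In Myeloid cells no pair of factors was called among 21, and 4 had an unadjusted p under 0.05. Irf5 and Maf were found together in 465 thinned cells against 498 expected, below expectation in 8 of 8 libraries (exact permutation p = 0.0078, adjusted p = 0.164). Cebpb and Irf8 were found together in 1106 cells against 1077 expected (above in 7 of 8 libraries) and Spi1 with Cebpb in 1538 against 1510 (above in 7 of 8), differences that did not pass the adjustment. Factors found in most cells leave little room above expectation. Spi1 with Cebpb could be found in at most 1830 Myeloid cells against 1510 expected, and in at most 332 EMP cells against 184 expected. The values of the 2 cell types are therefore not directly comparable.

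**Figure D3:**
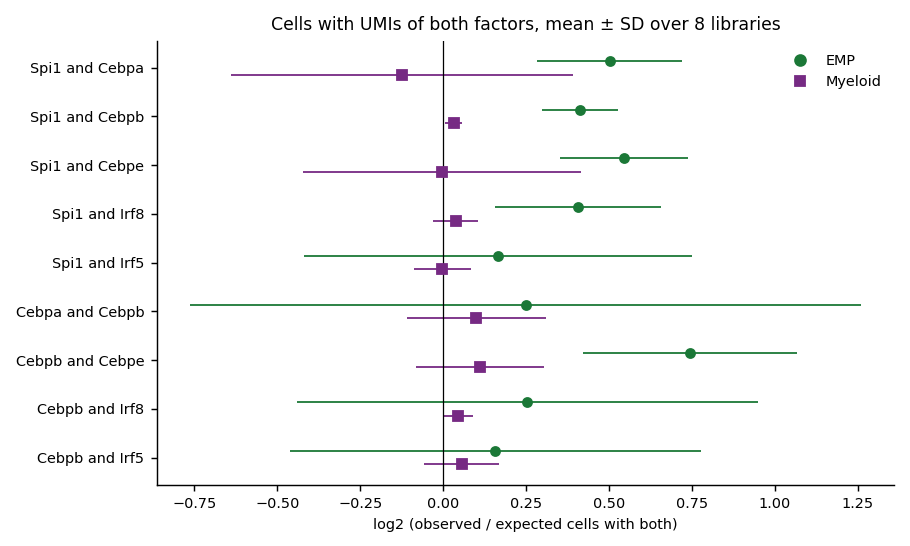
Cells with UMIs of both factors relative to the number expected from the single shares (log2, 0.5 added to each) for the 9 pairs with at least 8 cells expected in EMP, as means (points) and SDs (bars) over 8 libraries in EMP (green) and Myeloid cells (purple). In EMP the bars of 5 pairs lie wholly above 0, and the Myeloid means lie between -0.12 and 0.11. Pairs of factors found in most Myeloid cells have less room above 0 there than in EMP.

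Cells of 1 cluster were then divided by a UMI of a factor, and all other genes were compared between the 2 classes within libraries. In EHT, 313 thinned cells had a Spi1 UMI, 148 of them exactly 1, and 172 had none. Unthinned, 444 EHT cells had a Spi1 UMI and only 44 had none, so most cells of the class without had one before thinning. The 2 classes thus do not separate cells with and without Spi1 RNA. Below, cells with Spi1 are those with a UMI left after thinning. Over the 7 libraries with at least 10 cells of each class, 26 of 2070 genes (1.26%) passed the test, 10 higher (0.483%) and 16 lower (0.773%). Cd24a, a surface glycoprotein of many progenitors, was higher in cells with Spi1 (229 ± 73.8 against 123 ± 47.9 CPM, SD, n = 7) in 7 of 7 libraries. Mest, an imprinted hydrolase gene, was lower (54.8 ± 40.3 against 181 ± 71.6 CPM), and so were Marcks (66.9 ± 30.2 against 182 ± 49.0 CPM), a substrate of protein kinase C, and Id3 (135 ± 38.0 against 288 ± 110 CPM), an inhibitor of basic helix-loop-helix factors.

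Several of these differences changed in the fits at 3000 UMIs or without thinning. Without thinning, only WT 5 and Meis1-flox/VE-Cre 1 had 10 EHT cells without a Spi1 UMI, so that the values without thinning rest on 2 libraries and the effects of depth and of the libraries cannot be told apart. Cd24a (0.85) became 0.62 without thinning and 0.41 at 3000 UMIs, and was called at neither depth. Marcks went from -1.31 to -0.83 without thinning and lost its call. Ifitm1 was higher by 0.96 on the log2 scale (SE 0.11, edgeR adjusted p = 1.18e-11) and became -0.17 without thinning, and Gimap1 went from 0.64 to -0.26. Psmg2 (0.96, SE 0.26) and Acta2 (0.81, SE 0.23) lost their calls without thinning. Prkcdbp, a caveolar adaptor gene, was lower by 1.05 (SE 0.19), which was no longer called without thinning or at 3000 UMIs (-0.17). Of the 7 endothelial markers tested, 3 were called lower in cells with Spi1 (Cldn5 -0.69, Plvap -0.58 and Ramp2 -0.50), 4 were not called and none was higher. Cebpb was 0.45 higher (SE 0.15, edgeR adjusted p = 0.166), which was not called. The number of calls fell from 26 to 9 without WT 4, to 14 without WT 5, to 16 without Meis1-flox/VE-Cre 2 and to 17 without Meis1-flox/VE-Cre 1.

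Myeloid cells were divided by Maf in the same way. This division held more cells and libraries than that of EHT by Spi1, so the numbers of calls of the 2 divisions are not comparable. With 1601 thinned cells with a Maf UMI (440 of them with exactly 1) and 791 without, 1170 of 5693 genes (20.6%) passed the test over 8 libraries, 579 higher (10.2%) and 591 lower (10.4%). Unthinned, 2036 Myeloid cells had a Maf UMI and 361 had none, so many cells of the class without had one before thinning. Genes of tissue macrophages were higher where Maf was found: Mrc1, the mannose receptor, was 184 ± 70.2 against 14.3 ± 9.78 CPM, Dab2, an endocytic adaptor, 479 ± 147 against 64.5 ± 27.7 CPM, and Stab1, a scavenger receptor, 167 ± 45.5 against 29.9 ± 16.0 CPM (SD, n = 8), each higher in 8 of 8 libraries. C5ar1, the C5a receptor, and Slc40a1, the iron exporter ferroportin, were higher by 2.79 (SE 0.21) and 2.65 (SE 0.24) on the log2 scale. Genes of granulocytic cells were lower: S100a8 by 3.16, Mpo by 2.13 with 105 ± 65.9 against 461 ± 219 CPM, BC100530 by 2.09, S100a9 by 2.07 and Hp by 1.76. S100a9 was lower in 5 of 8 libraries, and it was not called with DESeq2 (-2.32) or without thinning (-1.71). All 10 tested macrophage markers were called higher (median 1.20) and all 4 tested granulocyte markers lower (median -2.10), where the median over all genes was -0.02.

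The other factors were slightly lower in Myeloid cells with Maf. Irf5 was 67.6 CPM in cells with and 89.2 CPM in cells without a Maf UMI, lower in 8 of 8 libraries (-0.37, SE 0.11, edgeR adjusted p = 0.0105). Cebpb was 375 against 484 CPM (-0.27, SE 0.06, edgeR adjusted p = 1.57e-03), Irf8 188 against 221 CPM (-0.27, SE 0.07, edgeR adjusted p = 7.02e-03) and Spi1 382 against 412 CPM (-0.20, SE 0.06, edgeR adjusted p = 0.0150). Zeb2 (0.41) and Csf1r (0.67) were called higher, while Klf4 was called lower (-0.99). CPM sum to a fixed total, and the part of the higher macrophage genes in these small differences of the 4 factors was not tested.

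EMP cells with a Cebpe UMI were a small class with higher levels of granulocytic genes. Unthinned, 78 EMP cells had a Cebpe UMI and 669 had none, and 5 libraries (WT 2, 4 and 5 and Meis1-flox/VE-Cre 1 and 2) had at least 10 cells of each class, with 10 to 17 cells with the UMI. In these, 1084 of 7657 genes (14.2%) passed the test, 658 higher (8.59%) and 426 lower (5.56%). Spi1 was 381 CPM in cells with and 175 CPM in cells without Cebpe (1.17, SE 0.10, edgeR adjusted p = 1.92e-09), Cebpa 45.7 against 18.8 CPM (1.30, SE 0.21, edgeR adjusted p = 5.04e-05) and Cebpb 250 against 131 CPM (0.95, SE 0.10, edgeR adjusted p = 4.65e-08). Irf8 was 0.66 higher (SE 0.24, edgeR adjusted p = 0.0880), in 3 of 5 libraries. Over all 8 libraries, Cebpe and Irf8 were found together in 23 unthinned EMP cells against 17.6 expected, which was not called. In thinned cells they were found together in 1 cell against 2.84 expected, which was called below (exact permutation adjusted p = 0.0820). Median UMIs per cell were similar in the 2 classes except in Meis1-flox/VE-Cre 1, with 27853 in cells with and 19764 in cells without the UMI.

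Granule genes rose with Cebpe and erythroid genes fell. Elane, neutrophil elastase, was 205 ± 140 CPM in cells with and 6.40 ± 3.21 CPM in cells without Cebpe (4.99, SE 0.19, edgeR adjusted p = 1.28e-16), and S100a8, S100a9, BC100530 and Stfa1 rose by 5.05 to 10.01 on the log2 scale, each in 5 of 5 libraries. All 5 tested granulocyte markers were higher. Klf1, the erythroid Kruppel-like factor, was 1.38 ± 2.55 against 42.9 ± 9.04 CPM, Car2, carbonic anhydrase, 14.8 ± 8.75 against 176 ± 36.2 CPM, and Cited4 and Smim1 fell by 6.16 and 5.03 on the log2 scale. Of the erythroid markers 7 of 8 were lower, and of the megakaryocyte markers 4 of 6. The mast cell gene Cpa3, the one mast marker tested, was lower in 5 of 5 libraries (-1.43). Gata1 (-1.45), Gata2 (-1.07) and Zfpm1 (-2.22) were lower and Csf3r was higher (1.39).

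**Figure D4:**
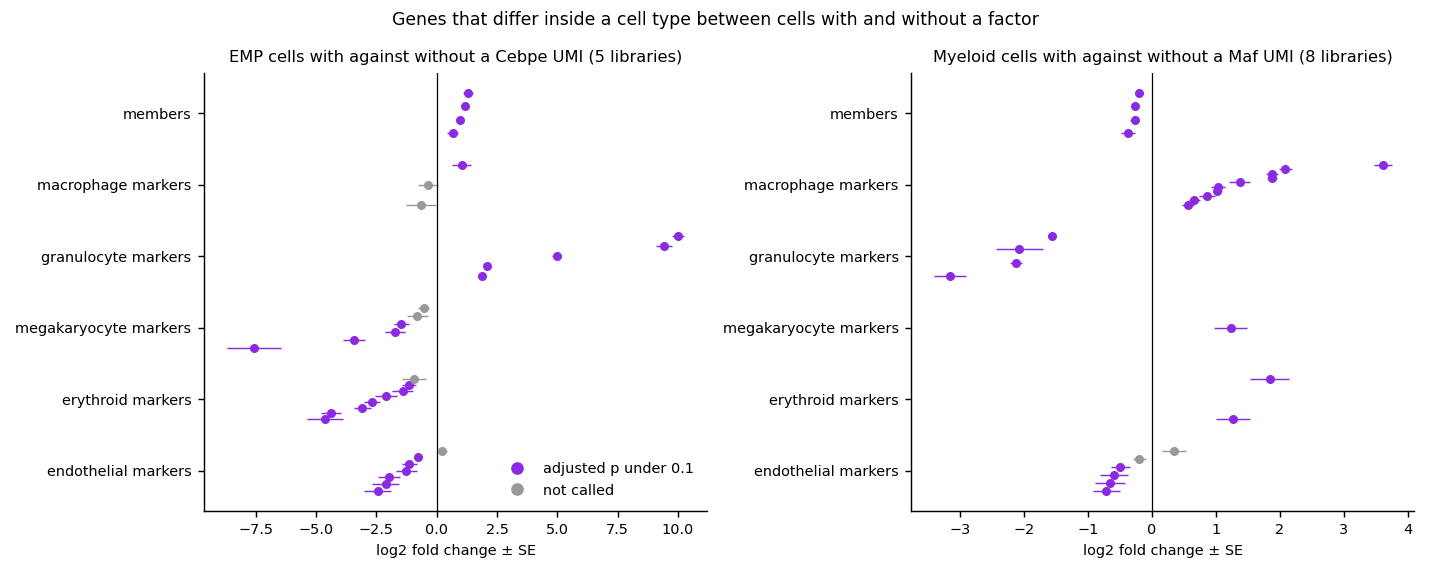
Log2 difference between cells with and without a UMI of Cebpe (EMP, left, 5 libraries) or Maf (Myeloid, right, 8 libraries) on the horizontal axes for the other factors and for the marker lists (rows), 1 point per gene with its standard error as a bar, called genes in purple. Granulocyte markers lie above 0 with Cebpe and below 0 with Maf, and all tested macrophage markers lie above 0 with Maf.

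The antibody tags had no part in drawing the clusters. Mean tag counts per cell were compared between thinned cells with and without a UMI of a factor in 45 combinations of factor, tag and cell type with at least 6 libraries, and none was called (lowest exact permutation adjusted p = 0.176), while 9 had an unadjusted p under 0.05. The smallest possible exact permutation p is 0.0156 with 7 libraries. After adjustment over 45 combinations, 1 combination alone at that p could not be called, so the lack of calls does not show equal tags. Myeloid cells with Maf had more CD45-2 tag, the pan-leukocyte antigen, in 7 of 7 libraries (log2 ratio 0.94 ± 0.96, SD, n = 7, exact permutation p = 0.0156). EMP with Cebpb had less CD41 tag, a megakaryocyte and progenitor antigen, in 7 of 7 libraries (-0.57 ± 0.37, exact permutation p = 0.0156) and less c-kit tag in 7 of 7 (-0.20 ± 0.16, exact permutation p = 0.0156). Myeloid cells with Irf8 had slightly less c-kit tag in 7 of 7 libraries (-0.18 ± 0.13, exact permutation p = 0.0156).

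The genes whose levels ran most like each factor were found over 49 WT sums (library by cell type), as Pearson correlations of log2(CPM + 1) among 9541 genes; these sums share libraries and depth, and the values are a description. Spi1 was most like Traf3ip3 (r = 0.98), Arhgap4 (0.98) and Adap1 (0.98), and Cebpb like Alox5ap (0.96), Traf3ip3 (0.95) and Arhgap4 (0.95). Cebpa was most like Stap1 (0.94), Arhgap15 (0.94) and the Fc receptor gene Fcgr3 (0.94), and Cebpe like Hdc, histidine decarboxylase (0.95), Cpa3, mast cell carboxypeptidase (0.94), and Ms4a3 (0.91), although within EMP Cpa3 was lower in cells with a Cebpe UMI. Irf8 was most like Irf5 (0.95), Cd180 (0.95) and Ccl3 (0.95), and Irf5 like Cybb (0.97) and Ppfia4 (0.96). Maf had lower values, with Snx2 (0.87), Mrc1 (0.85) and Rnase4 (0.83). Among the members themselves the highest values were those of Irf8 with Irf5 (0.95) and of Spi1 with Cebpb (0.94), and the lowest was that of Cebpe with Maf (0.09).

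Between genotypes, no member was called in any cell type in the fit without a replicate block. Of 33 member and cell type pairs tested with edgeR, 0 were called and 2 had an unadjusted p under 0.05, beside 4.74% of all genes called in EMP, 3.26% in Myeloid cells, 0.127% in EHT, 0.489% in pre-HE, 0.206% in Megakaryocytes, 0.0187% in vEC_2 and 0% in vEC_1, vEC_3, vEC_4 and aEC. Log2 differences (Meis1-flox/VE-Cre minus WT) ran from -0.85 for Cebpe in EMP (SE 0.51, edgeR adjusted p = 0.409) to 0.90 for Maf in Megakaryocytes (SE 0.81). Meis1 itself, counted from 3' reads that need not come from the deleted exon and so do not check the deletion, was 27.6 ± 7.95 CPM in EMP of the 3 Meis1-flox/VE-Cre libraries against 65.6 ± 7.93 CPM in the 5 WT libraries, 10.5 ± 2.72 against 20.4 ± 5.46 CPM in Myeloid cells and 30.8 ± 21.8 against 31.8 ± 14.6 CPM in pre-HE (SD).

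Cebpb was the factor nearest to a difference. In EHT it was 173, 160.5 and 239 CPM in the Meis1-flox/VE-Cre libraries against 307, 334, 248, 293 and 187 CPM in WT 1 to WT 5, with overlapping ranges (-0.47, SE 0.18, edgeR adjusted p = 0.41). Its difference was below 0 in 9 of 9 cell types, from -0.53 to -0.15. WT 5, the WT library with a depth like that of the knockout libraries, was also the lowest WT library, and with median UMIs as a covariate the difference became 0.12 in EHT, 0.37 in EMP and 0.38 in Myeloid cells. Against WT 5 alone it was 0.025, 0.18 and 0.26. The cell names of WT 5 also began differently from those of the other WT libraries, and its relation to the knockout litters is not given in the sources used here. Genotype and depth cannot be told apart for the other 4 WT libraries. Under the replicate number as a block, which uses libraries 1 to 3 of each genotype, 4 pairs were called. These were Cebpb in EHT (-0.57, edgeR adjusted p = 0.0128) and EMP (-0.52, edgeR adjusted p = 0.0524), Cebpe in EMP (-1.28, edgeR adjusted p = 0.0239) and Irf8 in Megakaryocytes (3.06, edgeR adjusted p = 0.0900), the last without WT 3, which held too few of these cells.

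**Figure D5:**
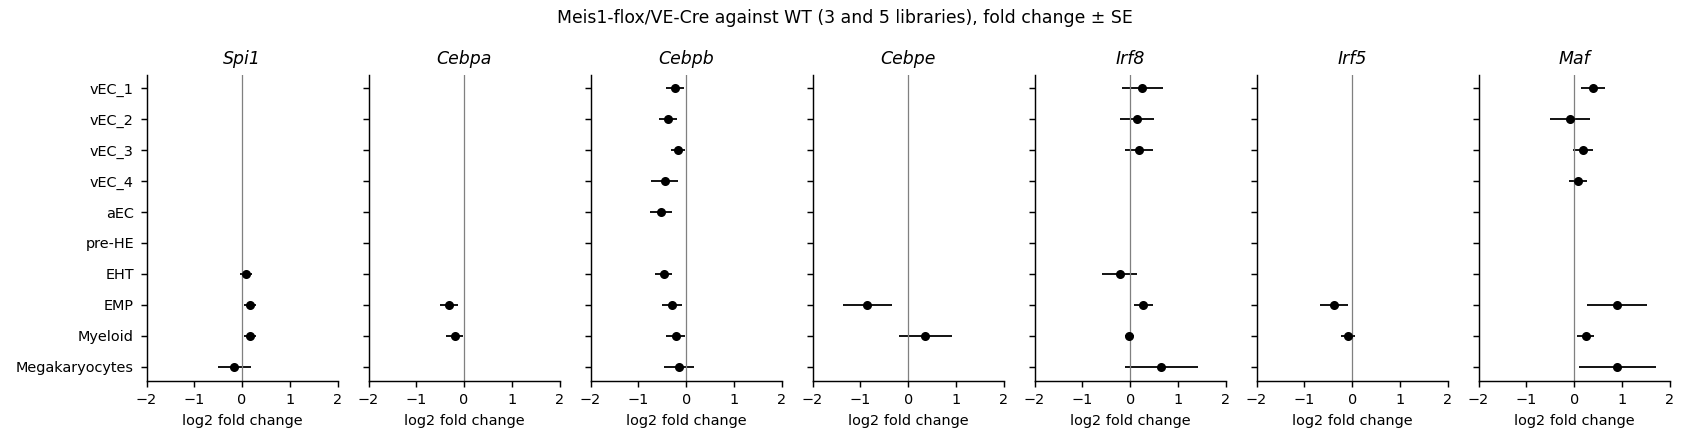
Log2 difference between Meis1-flox/VE-Cre and WT (3 and 5 libraries) for each factor (panels) on the horizontal axes, in the cell types where it was tested (rows), with standard errors as bars. No difference was called, and all Cebpb values lie below 0.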

How the data were processed

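Libraries were made with the 10x Chromium 3' kit (v3) and counted with Cell Ranger 3.0.2 against mm10, per the submitters' processing notes. The authors deposited raw UMI counts per cell after keeping cells above 2000 genes and below 10% mitochondrial reads, and a table of each cell's sample and cluster, made in Seurat from the RNA. Counting from the 3' end does not show isoforms. CD44 tags were missing in WT 1 to WT 4 and all tags in WT 4.

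The members and gene lists were chosen with earlier results of these data known. Counts were summed per library and cell type (at least 10 cells) and tested with edgeR 4.0.16 (TMM, filterByExpr, quasi-likelihood F test, two-sided) in R 4.3.3, with Benjamini-Hochberg adjustment over all genes tested and a call at an adjusted p under 0.1. Comparisons of cell types or of cells divided by a UMI had the library as a block. Shares, co-detection (0.5 added to observed and expected cells) and tag counts (0.5 added to each mean) used cells thinned to 5000 UMIs and exact two-sided sign-flip permutation tests over libraries (SciPy 1.17.1), with at least 10 cells per class. In each division of cells, the 5 called genes with the largest rise and fall and a mean of at least 20 CPM were named, and for each member the 3 genes with the highest correlation and a mean of at least 5 CPM. Some genes that met these rules are not reported here. Divisions by Cebpe and co-detection in EMP were added after the data were seen. Doublets called by Scrublet (scanpy 1.11.5; 83 cells, 0.547%) were kept in the main analysis, and 50 of them were Myeloid. Scripts were checked on simulated data. Alternatives included DESeq2 1.42.0, other filters, thinning to 3000 UMIs, no thinning, and leaving out each library. Floors of 3 counts cover counting error only. Whether the replicate numbers pair the libraries was not settled. Deviations of same-numbered libraries correlated from -0.19 to 0.40 over 27 pairs in 9 cell types (median 0.14), with 17 over 0.1. Numbers 2 and 3 reached 0.20 to 0.40 in vEC_1 to vEC_4 and aEC, where number 1 stayed under 0.1. Only in EMP were all 3 pairs over 0.1 (0.12 to 0.20), and the calls of the blocked fit are given beside the result.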

Additional observations from a re-analysis of the deposited data

Results flagged for a closer look

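Of 29 groups of 4 or 5 WT libraries with a mean of at least 5 CPM, 3 had a highest library apart from the rest by Dixon's criterion, where chance gives about 1 in 20. Cebpe in EMP was 57.5 CPM in WT 1 and 18.9 to 29.4 CPM in the other 4 WT libraries, a gap of 0.729 of the range against a critical value of 0.710. Irf5 in EMP was 8.59 CPM in WT 1 and 4.79 to 5.59 CPM in the others (0.789 against 0.710). Irf8 in Megakaryocytes was 30.6 CPM in WT 4 and 1.09 to 5.82 CPM in the other 3 libraries tested (0.840 against 0.829).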

How the results depend on the processing

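Among the values recomputed under alternatives, 965 kept their direction and call, 70 lost and 18 gained a call, and 10 changed sign. The cause of each change was not tested unless named here. Against the 2, 5 and 6 members called in the steps from pre-HE to EHT, EHT to EMP and EMP to Megakaryocytes, no filter on low counts called 5 in the first, and thinning to 5000 UMIs called 2 in each of the other two, since only Spi1 and Cebpb then had enough counts to be tested. Leaving out 1 library gave 2, 5 to 6, 7 and 4 to 7 members in the 4 steps.

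Between genotypes (0 of 33 pairs called), no filter called 1 and the replicate block called 4. Replicates 1 to 3 without the block, an alternative added after the data were seen, called 2. The parts of the block, the choice of libraries and their depth in these calls were not tested. Leaving out 1 library called 0 to 1, the latter without WT 5. The Cebpb difference changed sign with median UMIs as a covariate (EHT 0.12, EMP 0.37, Myeloid 0.38) and against WT 5 alone (0.025, 0.18 and 0.26).

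The 26 genes of the Spi1 division became 6 with DESeq2, 7 at 3000 UMIs, 16 without thinning (2 libraries in place of 7), 16 at an adjusted p under 0.05 and 9 to 28 without 1 library, and Ifitm1 and Gimap1 became -0.17 and -0.26 without thinning, where depth and the lost libraries cannot be told apart. The 1170 genes of the Maf division became 747 with DESeq2, 720 at 3000 UMIs, 2874 without thinning (7 libraries in place of 8) and 808 to 1265 without 1 library. The 1084 genes of the Cebpe division in EMP became 658 with DESeq2, 151 when thinned with at least 5 cells and 798 to 1147 without 1 library. The Cebpe division of Myeloid cells was not run, because only 34 thinned cells had a UMI and no library had 10.

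The 16 called share steps became 0 with the 5 WT libraries alone, where the smallest possible exact permutation p is 0.0625, and 14 to 17 without 1 library. The Maf share from pre-HE to EHT (-1.25 points) became 0.363 points at 3000 UMIs and 1.57 points without thinning. The 0 called tag pairs became 8 without thinning. Depth limits the zero levels: a count of 0 in pre-HE allows a level of up to 1.29 CPM in WT (3 counts).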
